A study of Mus musculus with 14 samples.

Results

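The tumour labelled rhabdomyosarcoma, with the identifier m718 in its title, was 1 of 14 arrays of this mouse series and the only one with that diagnosis. It was chosen by its title and compared with the 12 arrays titled as osteosarcoma, of which 1 title is misspelled. The other array was that of mc3T3, a cultured, untreated and non-tumorigenic mouse osteoblast line. All 13 tumours arose in p53+/- mice, which carry 1 intact copy of the p53 tumour suppressor gene, so the osteosarcomas share that genotype with the labelled tumour. Strain, age, sex, tumour site and treatment of the mice are not in the labels, nor is it stated there that each osteosarcoma came from a mouse of its own. The p-values below therefore measure only the spread between these 12 samples. The question asked here is which lineage its genes point to. Signals are given as the array value of the gene's brightest probe set, and a range is the lowest to the highest of the 12 osteosarcomas.

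Rhabdomyosarcoma is a sarcoma with features of skeletal muscle, and pathologists recognise it by the myogenic transcription factors MyoD and myogenin and by desmin, a filament protein of muscle. Osteosarcoma cells make bone matrix, and the osteoblast programme behind that matrix runs through the transcription factors Runx2 and Sp7 to alkaline phosphatase, bone sialoprotein and type I collagen. Bone tumours also attract osteoclasts, the bone-resorbing cells of the macrophage lineage. In bulk tumour RNA, fewer cells of a type and less RNA per cell cannot be told apart.

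The data went against the muscle label and placed the tumour apart from the osteosarcomas as well. It is called the labelled tumour below, and no other cell type name is given to it. Across 11815 genes it correlated with the single osteosarcomas at r = 0.778 to 0.853 (median 0.826). The 66 pairs of osteosarcomas ranged between 0.852 and 0.944 (median 0.903), and mc3T3 correlated with the osteosarcomas at 0.693 to 0.762. These are correlations across genes, which are not independent replicates. The array itself did not stand apart in its median signal, 81.5 in the labelled tumour against 67.1 to 111.1 in the osteosarcomas. Its beta-actin 3' to 5' signal ratio, a measure of RNA integrity, was 1.24 and lay below the 1.42 to 2.13 of the osteosarcomas. Its Gapdh ratio of 0.787 lay inside their range of 0.736 to 1.03. Whether RNA quality had a part in the differences was not tested.

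A gene was called when its adjusted p in limma was under 0.05 and it differed by at least 1 on the log2(signal + 30) scale. By this rule 141 genes (1.19% of 11815) were higher and 208 genes (1.76%) were lower in the labelled tumour than in the osteosarcomas. All 349 called genes (2.95%) lay outside the range of the 12 osteosarcomas. At this threshold a called gene has to lie outside the range of so few osteosarcomas. That place, here and below, therefore adds no support to a call. The median change over all genes was 0.05 on the log2 scale. Being outside the range was far more common than a call. For each gene 1 of the tumours has to be the highest and 1 the lowest, so any array can lie outside the others for some genes. The labelled tumour lay above all 12 osteosarcomas for 1962 genes (16.6%) and below all 12 for 1664 genes (14.1%). By at least 1 on the log2 scale it lay above them for 227 genes (1.92%) and below them for 260 genes (2.2%). The group of the labelled tumour holds 1 array, which the fit assumes to vary as an osteosarcoma does. For a single gene on its own, an exact permutation of 1 array against 12 cannot give a p below 0.0769.

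Genes of the skeletal muscle lineage were not raised in the labelled tumour. Of the 17 tested genes for myogenic regulators and muscle precursors, 0 rose, 1 fell and 16 did not pass, with a median change of -0.70. None of the 32 sarcomere and mature muscle genes was called in either direction, and their median change was -1.88. Myod1, which encodes the master regulator MyoD, had a signal of 39.4 in the labelled tumour, against 21.3 to 455 (median 72.9) in the osteosarcomas and 23.8 in mc3T3. The value of the labelled tumour lay inside the osteosarcoma range and under the signal of 200 that served as the floor for testing. Myog, which encodes myogenin, had 65.9 in the labelled tumour, against 11.7 to 530.2 (median 73.3) in the osteosarcomas and 58.9 in mc3T3. The changes were -0.72 ± 0.94 for Myod1 (SE; adjusted p = 0.765) and -0.26 ± 1.14 for Myog (adjusted p = 0.937), so neither passed and both intervals are wide.

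MyoD and its relatives bind sites called E-boxes. The promoter of Myog is shown because this gene marks the lineage named by the label. It is the 250 bases before the start site on the plus strand at chr1:134289754-134290003 (GRCm38.p6, sequence from RefSeq), printed from 5′ to 3′. Capitals mark the E-box letters CANNTG, which read the same on both strands.
Myog promoter: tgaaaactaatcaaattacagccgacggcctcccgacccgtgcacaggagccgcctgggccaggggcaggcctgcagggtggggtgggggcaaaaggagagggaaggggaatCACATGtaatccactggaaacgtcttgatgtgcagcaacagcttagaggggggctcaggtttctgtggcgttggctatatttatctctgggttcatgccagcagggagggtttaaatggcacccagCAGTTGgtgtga
The window holds 2 matches to CANNTG, which begin 138 and 12 bases before the start site, and 0 matches to the TATA box letters TATAAA on either strand. Matches of this kind are common: 66.2% of 32851 mouse promoter windows of the same length hold CANNTG, and 12.4% hold TATAAA on either strand. A match describes letters and is not a measured binding site.

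The other defining muscle genes were as low. Des, which encodes desmin, had 88.6 in the labelled tumour, against 100.5 to 7744 (median 727) in the osteosarcomas and 81.4 in mc3T3. The labelled tumour was below all 12 osteosarcomas for Des, yet the spread between the osteosarcomas was so wide that the change of -2.84 ± 1.42 did not pass (adjusted p = 0.349). Myh3, the embryonic myosin heavy chain, had 43.2 in the labelled tumour, against 11.4 to 766 (median 91.6) in the osteosarcomas. Actc1, the cardiac actin that is also made in fetal muscle, had 47.9 in the labelled tumour, against 59.0 to 1668 (median 123) in the osteosarcomas, below all 12. Several regulators stayed under the signal of 200 on every array and were not tested. Among them, Myf5 had 4.4 in the labelled tumour and 0.6 to 40.9 in the osteosarcomas, and the satellite cell factor Pax7 had 9.8 in the labelled tumour and 2.5 to 56.9 in the osteosarcomas. Pax3, which is active in muscle precursors and neural crest, had 129 in the labelled tumour and 3.4 to 126 in the osteosarcomas. The acetylcholine receptor subunit gene Chrnd had 31.0 in the labelled tumour and 6.4 to 45.5 in the osteosarcomas. The labelled tumour lay inside the osteosarcoma range for Myf5, Pax7 and Chrnd and just above it for Pax3.

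Cdh15, the M-cadherin of muscle precursors, was the single called gene of the muscle lists, and it fell. Its signal was 9.9 in the labelled tumour, against 417 to 1764 (median 907) in the osteosarcomas and 59.0 in mc3T3. It fell by 4.50 ± 0.63 on the log2 scale (SE; adjusted p = 0.00109), with the labelled tumour far below every osteosarcoma. The wide spread of the muscle genes came from the osteosarcomas. The summed signal of the 32 sarcomere genes was 16615 in the labelled tumour, against 5195 to 511907 in the osteosarcomas. Only 3 of the 12 osteosarcomas had less, and the 2 with the most were replicates 6 and 9. The summed signal of the 17 precursor genes was 5918 in the labelled tumour, below the 6812 to 24561 of the osteosarcomas. The amount of adjacent muscle in the samples was not measured. Muscle gene calls were 0 higher also without replicates 6 and 9.

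**Figure D1:**
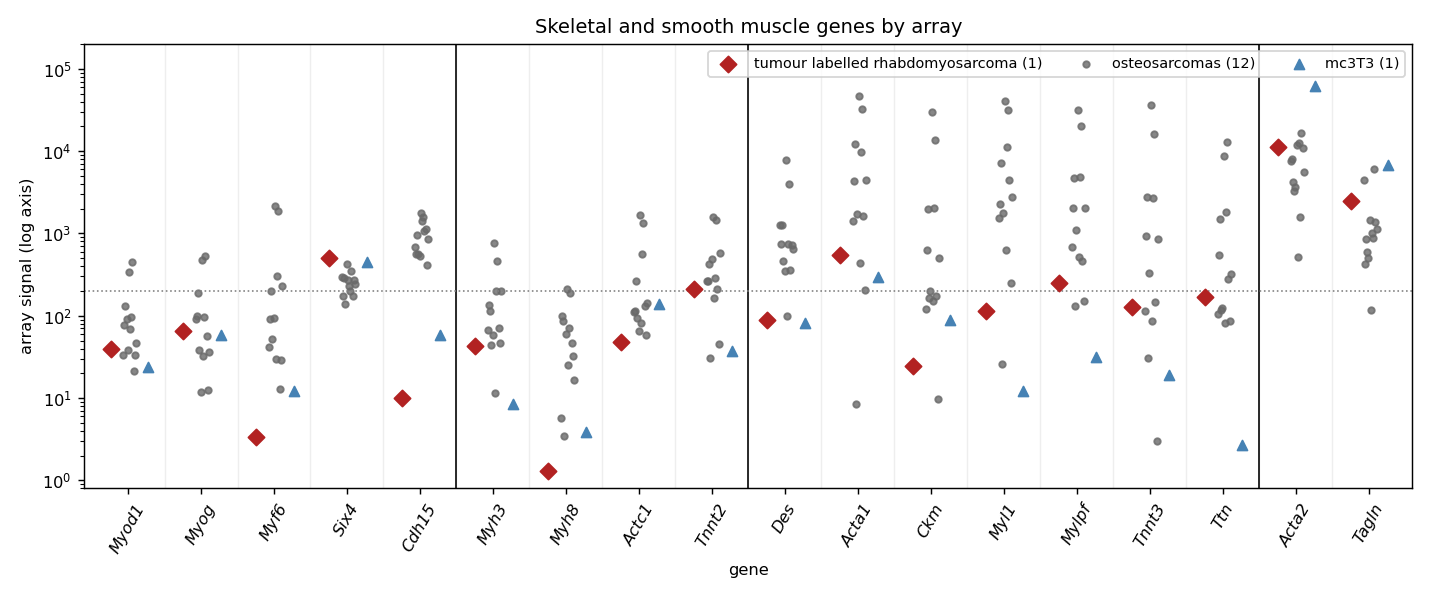
Array signal (log axis) of muscle genes in the labelled tumour (red diamonds), the 12 osteosarcomas (grey points) and mc3T3 (blue triangles), with values under 1 drawn at 1. Black lines separate regulators and precursor genes, embryonic and fetal muscle genes, sarcomere genes and smooth muscle genes, and the dotted line is the signal of 200. The labelled tumour lies inside or below the grey points for all genes shown except Six4, at 503 against 139 to 422.

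Bone genes that were high in every osteosarcoma were low in the labelled tumour. Of 26 tested osteoblast and bone matrix genes, 14 fell, 0 rose and 12 did not pass, against 1.76% of all genes called lower. The labelled tumour lay below all 12 osteosarcomas for 20 of the 26, against 14.1% of all genes, and the median change was -2.90. It lay above all 12 for 2 of the 26, against 16.6% of all genes. The summed signal of the 26 genes was 108725 in the labelled tumour, against 241833 to 341884.5 in the osteosarcomas. Ibsp, which encodes the matrix protein bone sialoprotein, had a signal of 155 in the labelled tumour, against 30210.3 to 49087 (median 35469) in the osteosarcomas and 37.4 in mc3T3. The gap between the labelled tumour and the lowest osteosarcoma was -7.35 on the log2 scale. Sp7, the transcription factor osterix, had 86.7 in the labelled tumour, against 1158 to 4132 (median 2373) in the osteosarcomas and 1515 in mc3T3. It fell by 4.26 ± 0.52 (SE; adjusted p = 0.000285), so the labelled tumour was below both the osteosarcomas and the osteoblast line.

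The Ibsp promoter is shown because this gene had the largest fall of all, and its TATA box letters contrast with the Myog window. It lies on the plus strand at chr5:104299037-104299286 (GRCm38.p6, RefSeq), and capitals mark CANNTG and, on either strand, TATAAA.
Ibsp promoter: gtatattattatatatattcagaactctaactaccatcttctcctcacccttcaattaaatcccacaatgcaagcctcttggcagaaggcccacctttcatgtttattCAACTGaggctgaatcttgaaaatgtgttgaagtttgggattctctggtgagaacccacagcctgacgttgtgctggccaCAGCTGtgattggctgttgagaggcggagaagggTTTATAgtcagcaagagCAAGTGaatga
The window holds 3 matches to CANNTG and 1 to TATAAA, found as its reverse complement 28 bases before the start site. None of them overlap.

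Alpl, which encodes tissue-nonspecific alkaline phosphatase, had 54.0 in the labelled tumour, against 5833 to 11527 (median 9726) in the osteosarcomas and 1550.4 in mc3T3. Every osteosarcoma and the cultured line were thus well above the labelled tumour. Dmp1, a regulator of mineralisation made by osteocytes, had 50.3 in the labelled tumour, against 2566 to 39082 (median 7306) in the osteosarcomas. Again, the labelled tumour was below the whole range. The osteoblast channel Panx3 had 42.0 in the labelled tumour, against 2013 to 16889.7 (median 7709) in the osteosarcomas. Ifitm5, a membrane protein of mineralising osteoblasts, had 13.8 in the labelled tumour, against 1619.6 to 8444 (median 3815) in the osteosarcomas. Pth1r, the receptor for parathyroid hormone, had 95.7 in the labelled tumour, against 2694 to 10796 (median 6407) in the osteosarcomas, and fell by 5.53 ± 0.63 (adjusted p = 0.000189). All of these genes were far below the lowest osteosarcoma. For these 4 genes mc3T3 had only 62.8, 137, 79.0 and 212, so low levels of late osteoblast genes were not limited to the labelled tumour.

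The type I collagen gene Col1a1 moved far less. Its signal was 18690.1 in the labelled tumour, against 30026 to 58684 (median 47357) in the osteosarcomas and 62259 in mc3T3. It fell by 1.30 ± 0.31 (adjusted p = 0.0363), and this call was lost in 10 of 21 alternatives. Chosen after their values were seen, Dlx5 and Dlx3, homeobox factors of osteoblasts, had 34.9 and 23.0 in the labelled tumour, against 699.6 to 2333 and 120.4 to 580.1 in the osteosarcomas. Both were called lower. Runx2, Bglap and Spp1 are not analysed here, for want of a named probe set. Other genes of the 15 largest falls were Ptgis, the prostacyclin synthase (137 in the labelled tumour, against 4477 to 18489.5 (median 10513) in the osteosarcomas), and the phosphatase receptor Ptprd (68.5 against 3258 to 10367 (median 5943)). Cgref1 had 135 in the labelled tumour, against 2356 to 14882 (median 8442) in the osteosarcomas, and the collagen gene Col22a1 had 61.0, against 1284 to 16981 (median 5126). For all of these genes the labelled tumour was below every osteosarcoma.

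Osteoclast genes fell beside the osteoblast genes. Of 19 tested, 9 fell, 0 rose and 10 did not pass, against 1.76% of all genes called lower. The labelled tumour was below all 12 osteosarcomas for 17, against 14.1% of all genes. The median change was -2.69, and the summed signal was 18961 in the labelled tumour against 111959.6 to 249885 in the osteosarcomas. Acp5, which encodes the acid phosphatase used to stain osteoclasts, had 736 in the labelled tumour, against 26171 to 53849.8 (median 37813) in the osteosarcomas and 41.3 in mc3T3. It fell by 5.59 ± 0.38 (SE; adjusted p = 6.55e-07). Ctsk, the collagen-degrading cathepsin K, had 975 in the labelled tumour, against 29790.4 to 55955 (median 43396) in the osteosarcomas. Both genes were above a signal of 200 in the labelled tumour and far under the lowest osteosarcoma. Ocstamp and Dcstamp, needed for the fusion of osteoclast precursors, had 11.4 and 23.4 in the labelled tumour, against osteosarcoma medians of 2952 and 2771. The proton pump subunit gene Atp6v0d2 had 124 in the labelled tumour, against 2352 to 14631 (median 7917) in the osteosarcomas. All 3 were called lower, with no overlap between the labelled tumour and any osteosarcoma.

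Matrix metalloproteinases changed in both directions. Of 16 tested proteases and inhibitors, 2 rose and 2 fell, against 1.19% of all genes called higher and 1.76% called lower. The collagenase gene Mmp13 had 357 in the labelled tumour, against 24035 to 45100.2 (median 36106) in the osteosarcomas and 12999.5 in mc3T3, and fell by 6.52 ± 0.34 (adjusted p = 5.18e-08). The gelatinase gene Mmp9, which also stands in the osteoclast list, had 1291 in the labelled tumour, against 22195 to 48589 (median 34043) in the osteosarcomas. Neither range came near the labelled tumour. In the other direction, the stromelysin gene Mmp3 had 7030.5 in the labelled tumour, against 19.8 to 1034 (median 136) in the osteosarcomas and 78.8 in mc3T3, and rose by 5.28 ± 1.16 (adjusted p = 0.0226). Timp3, an inhibitor of these proteases, had 8860.4 in the labelled tumour, against 609 to 2422 (median 1412) in the osteosarcomas, and rose by 2.72 ± 0.54 (adjusted p = 0.013).

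**Figure D2:**
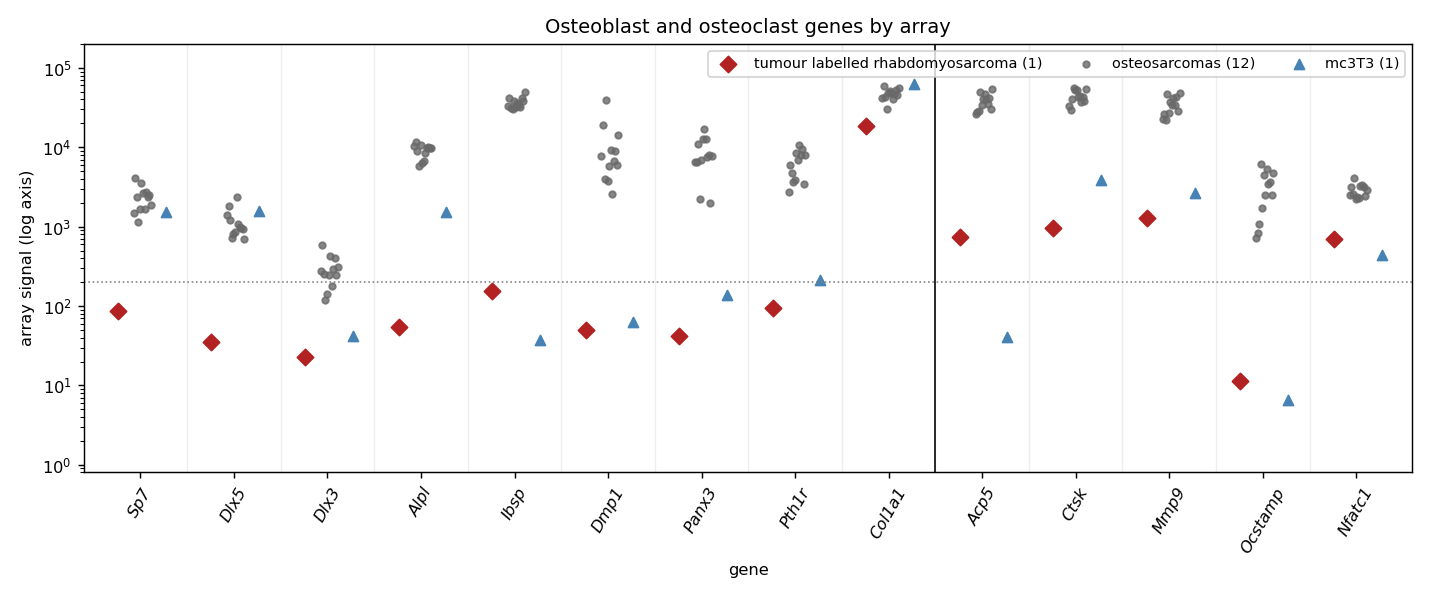
Array signal (log axis) of osteoblast genes (left of the black line) and osteoclast genes (right) in the labelled tumour (red diamonds), the 12 osteosarcomas (grey points) and mc3T3 (blue triangles). The labelled tumour lies below every osteosarcoma for all 14 genes shown, by least for Col1a1, at 18690.1 against 30026 to 58684. The genes were picked for display. In the full lists this held for 20 of 26 osteoblast and 17 of 19 osteoclast genes.

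Most of the 15 genes raised most in the labelled tumour were under a signal of 200 in every osteosarcoma. Crabp1, Sox2, Nxph1, Tenm3, AW551984 and 3110039M20Rik reached that signal on the labelled tumour's array alone and had to differ. Their place above every other array follows from the filter, so they are a description only. Crabp1, which encodes a cytosolic retinoic acid binding protein, had a signal of 6197 in the labelled tumour, against 4.2 to 67.4 (median 10.9) in the osteosarcomas and 41.4 in mc3T3. No other array came near the labelled tumour, and its log2 change was 7.06 ± 0.48 (SE; adjusted p = 6.55e-07). Its promoter is shown as that of the gene with the largest rise, to be set beside the other sequences. It lies on the plus strand at chr9:54764498-54764747 (GRCm38.p6, RefSeq), marked in the same way.
Crabp1 promoter: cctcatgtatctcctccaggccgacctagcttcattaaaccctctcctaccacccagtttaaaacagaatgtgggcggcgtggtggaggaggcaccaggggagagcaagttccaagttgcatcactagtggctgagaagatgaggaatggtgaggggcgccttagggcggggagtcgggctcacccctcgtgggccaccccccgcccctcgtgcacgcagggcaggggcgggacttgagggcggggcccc
The window holds 0 matches to CANNTG and 0 to TATAAA, which says only that these letters are not in it, and no letter is therefore in capitals.

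Sox2, a transcription factor of stem cells, neural progenitors and Schwann cell precursors, had 1584 in the labelled tumour, against 1.4 to 27.8 (median 7.5) in the osteosarcomas and 3.6 in mc3T3. Hmga2, a chromatin protein of embryonic tissue, had 4896 in the labelled tumour, against 2.2 to 162 (median 20.9) in the osteosarcomas and 1608 in mc3T3. Hmga2 thus separated the labelled tumour from all osteosarcomas but was also bright in the cultured line. The other probe sets of Hmga2 gave 3626 and 1803 in the labelled tumour, with osteosarcoma maxima of 238 and 157, while the remaining one was dim on every array. Dlk1, an imprinted gene whose protein restrains differentiation, had 1048 in the labelled tumour, against 73.3 to 145 (median 117) in the osteosarcomas, and rose by 2.92 ± 0.31 (adjusted p = 7.5e-05). Of the 14 tested genes of the oncofetal and stem cell list, Hmga2, Dlk1 and Sox2 were the 3 that rose, 0 fell, and the median change was 0.63. The growth factor gene Igf2 was not among them, with 1149 in the labelled tumour, against 134 to 5140.3 (median 749) in the osteosarcomas.

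Other genes of the 15 largest rises had varied roles. Igfbp6, which binds insulin-like growth factors, had 12626 in the labelled tumour, against 31.4 to 509.7 (median 230.2) in the osteosarcomas and 1704 in mc3T3. The secreted matrix protein gene Spon2 had 2456 in the labelled tumour, against 3.8 to 106 (median 38.1) in the osteosarcomas. Tenm3, a teneurin of the cell surface, had 1652 in the labelled tumour, against 1.9 to 97.0 (median 42.8) in the osteosarcomas. For each of them the labelled tumour was the brightest of the 14 arrays, which for Tenm3 follows from the filter. Lrig1, a negative regulator of growth factor receptors, had 2196 in the labelled tumour, against 7.9 to 149.8 (median 76.7) in the osteosarcomas. Twist2, a transcription factor of dermal and other mesenchyme, had 1224 in the labelled tumour, against 6.3 to 69.6 (median 41.0) in the osteosarcomas. Its relative Twist1 did not pass, with 1342 in the labelled tumour, against 386 to 853 (median 669) in the osteosarcomas. For both, the labelled tumour was above all 12 osteosarcomas. The others of the 15 were Cth, an enzyme of cysteine synthesis (4.84 ± 0.75), the protease inhibitor gene Cst6 (4.86 ± 1.11), the actin regulator Eps8 (4.26 ± 0.83), AW551984 (5.02 ± 0.47) and 3110039M20Rik (4.89 ± 0.42).

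**Figure D3:**
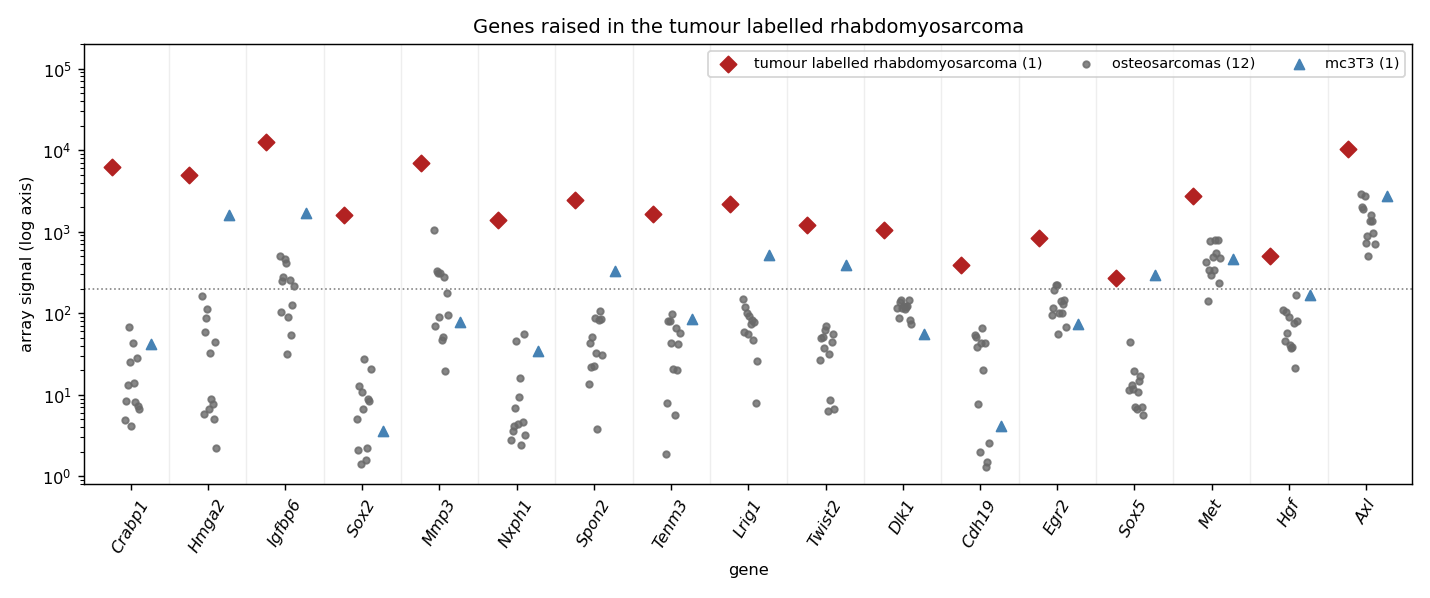
Array signal (log axis) of 17 genes called higher in the labelled tumour (red diamonds) than in the 12 osteosarcomas (grey points), with mc3T3 as blue triangles. For each of them the labelled tumour lies above every osteosarcoma, and mc3T3 is also above every osteosarcoma for Hmga2, Igfbp6, Spon2, Lrig1, Twist2, Sox5 and Hgf. For Sox5, mc3T3 is the highest array, at 298 against 270.0 in the labelled tumour.

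In none of the 27 lists did more than 3 genes rise, and over all genes 1.19% were called higher and 1.76% lower. Sox2, Cdh19, Nxph1, Chga, Lgals7, Dpp4, Crabp1, Dlk1 and Hgf reached a signal of 200 on the labelled tumour's array alone. These list members had to differ and add no support to the list counts above or below. Of 15 tested neural crest and Schwann cell genes, 3 rose and 0 fell, and the median change was 0.10, close to that over all genes. Besides Sox2 these were Cdh19, a cadherin of the Schwann lineage, and Egr2, a transcription factor of myelinating Schwann cells. Cdh19 had 392 in the labelled tumour, against 1.3 to 65.1 (median 29.4) in the osteosarcomas. Egr2 had 826 in the labelled tumour, against 55.7 to 225 (median 124) in the osteosarcomas. The labelled tumour was above all 12 for both genes. Defining members of the list were not raised. Sox10, the main factor of the neural crest and its glia, stayed under a signal of 200 on every array, with 14.2 in the labelled tumour and 24.1 to 162 in the osteosarcomas. S100b, a Schwann cell protein, had 85.9 in the labelled tumour, against 34.0 to 1065 (median 143) in the osteosarcomas and 719 in mc3T3.

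Of 6 tested neuronal genes, 2 rose and 0 fell, while 14 of the 20 listed were not tested. Nxph1, 1 of the 2, and Chga are among the members that had to differ. Nxph1, a secreted ligand of neurexins, had 1392 in the labelled tumour, against 2.4 to 54.9 (median 4.5) in the osteosarcomas. Stmn2, a microtubule regulator of neurons, had 1899.5 in the labelled tumour, against 18.7 to 460.2 (median 121) in the osteosarcomas, and rose by 3.71 ± 0.75 (adjusted p = 0.0138). Both genes were above all 12 osteosarcomas.

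Other lineages had single genes or none. Of 12 tested cartilage genes, 1 rose and 0 fell, with a median change of -1.92, and without osteosarcoma 4 or 7 there was 1 that fell. The gene was Sox5, a factor of chondrocytes and other lineages, with 270.0 in the labelled tumour, against 5.6 to 44.6 (median 11.6) in the osteosarcomas and 298 in mc3T3. The cartilage collagen gene Col2a1 had 15.8 in the labelled tumour, against 70.5 to 14732 (median 1583) in the osteosarcomas, and Acan had 80.5, against 42.2 to 412 (median 116). Sox9, the chondrocyte factor that other tissues also use, had 1214 in the labelled tumour, against 92.9 to 777 (median 199.6) in the osteosarcomas and 3183 in mc3T3, and did not pass (adjusted p = 0.152). The labelled tumour was above all 12 osteosarcomas for Sox9, below all 12 for Col2a1 and inside the range for Acan.

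Of 8 epithelial genes, 1 rose: Lgals7, a galectin of stratified epithelium, had 715 in the labelled tumour, against 4.3 to 88.5 (median 14.3) in the osteosarcomas. Epcam, at 120.0 in the labelled tumour and 139 to 323 in the osteosarcomas, and Krt14, at 3.5 and 2.7 to 536, did not pass. Of 11 adipocyte genes, 2 fell and 0 rose. The fatty acid carrier Fabp4 had 622 in the labelled tumour, against 4007 to 15732 (median 6325) in the osteosarcomas. Car3, a carbonic anhydrase made by adipocytes and muscle, had 383 in the labelled tumour, against 8274 to 44394 (median 25187) in the osteosarcomas, and was among the 15 largest falls. None of the 5 melanocyte, 8 tendon, 11 smooth muscle or 20 endothelial genes was called, and their median changes were 0.14, 0.30, -0.25 and 0.01. Without osteosarcoma 11, 1 melanocyte gene and 1 tendon gene rose. At an unadjusted p under 0.05, 1888 genes of the whole array passed. Acta2, the smooth muscle actin, had 11215 in the labelled tumour, against 522 to 16656 (median 6621) in the osteosarcomas. The endothelial Pecam1 had 1148 in the labelled tumour, against 498 to 1572 (median 1035) in the osteosarcomas, in the middle of their range.

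Fibroblast and interstitial matrix genes changed in both directions. Of 31 tested, 3 rose (Igfbp6, Spon2 and Twist2), 3 fell and 25 did not pass. The labelled tumour lay above all 12 osteosarcomas for 14 of them, against 16.6% of all genes. It lay below all 12 for 6, against 14.1%. The median change was 0.79. Fap, a serine protease of activated fibroblasts, had 577 in the labelled tumour, against 12292 to 29109 (median 17959) in the osteosarcomas, and fell by 4.95 ± 0.40 (adjusted p = 4.89e-06). The matrix glycoprotein gene Tnc had 1757 in the labelled tumour, against 8125 to 41685 (median 30454) in the osteosarcomas. The collagen gene Col5a2 had 14872 in the labelled tumour, against 34406 to 55838 (median 39153) in the osteosarcomas. None of the general mesenchymal genes Vim, Pdgfra and Prrx1 was called, and the labelled tumour lay inside the range for Vim and Prrx1 and just above it for Pdgfra. The filament gene Vim had 41350.2 in the labelled tumour, against 32656 to 58229.7 (median 38743) in the osteosarcomas, and Pdgfra had 7979.8, against 2278 to 7523 (median 4258). The limb mesenchyme factor Prrx1 had 3021 in the labelled tumour, against 1409 to 8824 (median 5605) in the osteosarcomas. Chosen after their values were seen, Pi16 and Dpp4, surface markers of adventitial fibroblasts, had 607 and 221 in the labelled tumour, against 8.2 to 252 and 3.0 to 109.6 in the osteosarcomas. Both were above the whole range, but neither passed (adjusted p = 0.0921 and 0.0608).

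Crabp1 and Sox2 are both known from the dermal papilla of the hair follicle, and Crabp1 from retinoic acid signalling. Of 15 tested dermal papilla genes, those 2 rose and 1 fell, with a median change of -0.28. The one that fell was Wif1, a secreted inhibitor of Wnt ligands, with 38.1 in the labelled tumour, against 635 to 17171 (median 2687) in the osteosarcomas. Of 16 retinoic acid genes, Crabp1 alone rose and 0 fell (1 without osteosarcoma 2), with a median change of -0.14. Crabp2, named after its value was seen, had 8789.5 in the labelled tumour, against 7.3 to 2932 (median 221) in the osteosarcomas and 3221 in mc3T3. It was above all 12 osteosarcomas, but with their wide spread its change of 5.43 ± 1.80 did not pass (adjusted p = 0.136). None of the 11 hedgehog genes was called. Ptch1, the receptor and target of that pathway, had 339.9 in the labelled tumour, against 696 to 2469 (median 1320.2) in the osteosarcomas, below all 12. Gli1 stayed under a signal of 200 on every array, with 9.7 in the labelled tumour and 23.9 to 127 in the osteosarcomas.

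Of 20 tested receptor kinases and growth factors of sarcomas, 3 rose and 1 fell. Without osteosarcoma 3, 5, 6, 9, 11 or 12 only 1 rose, and without osteosarcoma 1 there were 2 that fell. Met and its ligand Hgf were both higher in the labelled tumour, and Hgf is among the list members that had to differ. Met had 2740.0 in the labelled tumour, against 143 to 792 (median 448) in the osteosarcomas and 464 in mc3T3, and its other probe set gave 741 in the labelled tumour against 58.3 to 214.5 in the osteosarcomas. Hgf had 507 in the labelled tumour, against 21.5 to 166 (median 65.7) in the osteosarcomas. The receptor gene Axl had 10189.9 in the labelled tumour, against 502 to 2869.9 (median 1346) in the osteosarcomas. The calls of Met (adjusted p = 0.045) and Axl (adjusted p = 0.0435) were lost in 12 and 11 of 21 alternatives, in which their adjusted p reached 0.0736 and 0.075, while the labelled tumour was above all 12 osteosarcomas. Fgfr3, a receptor of cartilage and bone, had 74.2 in the labelled tumour, against 506 to 3069 (median 1411) in the osteosarcomas, and fell by 3.63 ± 0.69 (adjusted p = 0.0104).

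**Figure D4:**
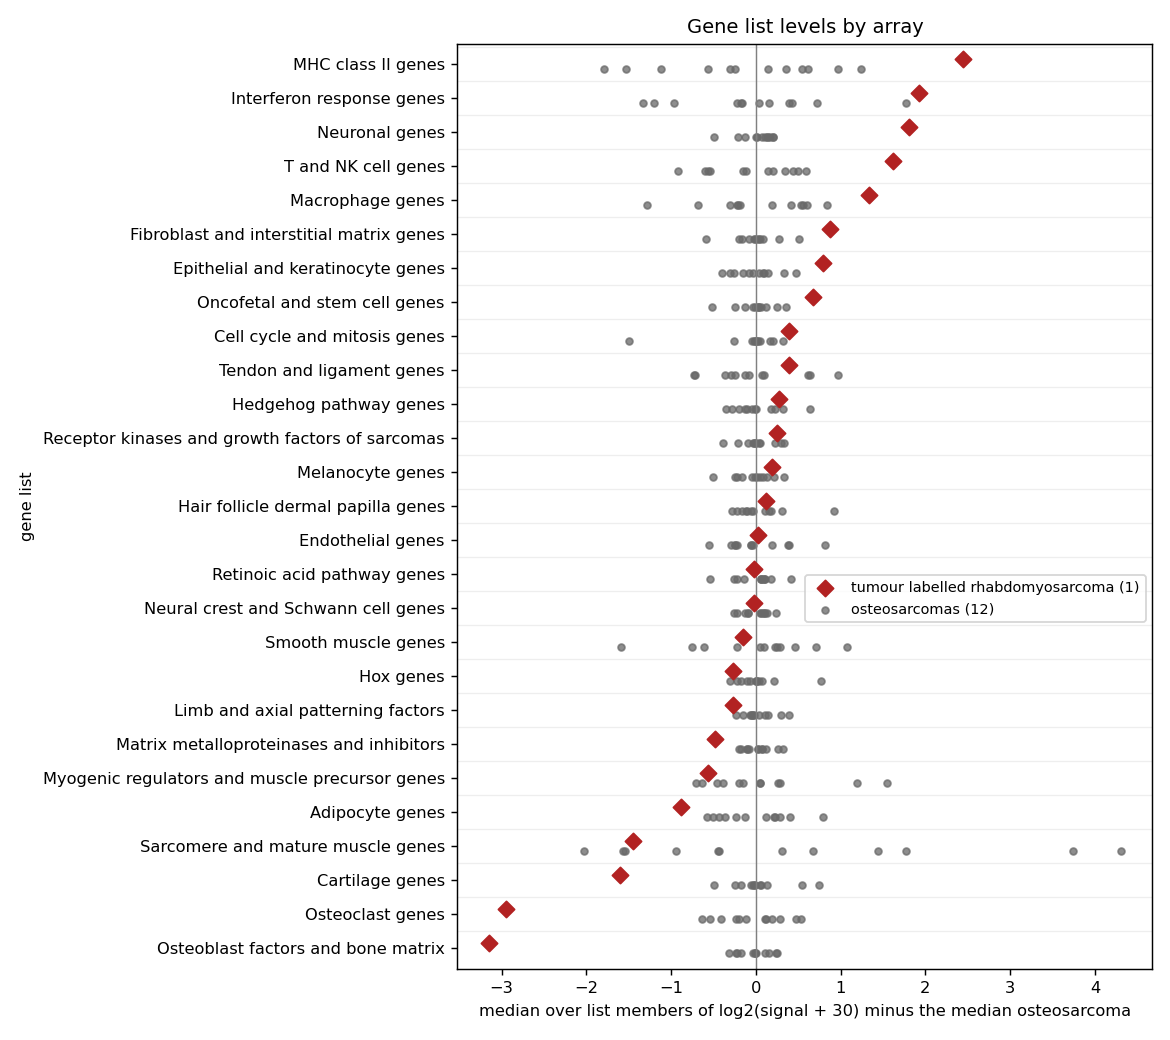
Level of the 27 gene lists on each tumour array, as the median over tested list members of log2(signal + 30) minus the median osteosarcoma (horizontal axis), for the labelled tumour (red diamonds) and the 12 osteosarcomas (grey points). The labelled tumour lies furthest to the left for the osteoblast list, at -3.15, furthest to the right for the MHC class II list, at 2.45, and inside the osteosarcomas for both skeletal muscle lists, at -1.45 and -0.57.

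Few immune genes passed the test: 0 of 22 macrophage genes, 2 of 8 MHC class II genes, 1 of 15 T and NK cell genes and 1 of 25 interferon response genes rose. Over all genes 1.19% were called higher. The summed signal of 22 macrophage genes was 270263 in the labelled tumour, against 88663 to 220670.5 in the osteosarcomas, with 1351 in mc3T3. The labelled tumour lay above all 12 osteosarcomas for 13 of the 22, against 16.6% of all genes. Of the 22, 0 were called, and the median change was 1.36. Cd68, a marker of macrophages and osteoclasts, did not pass and lay below all 12 osteosarcomas, with 5515 in the labelled tumour, against 7551 to 23229.8 (median 11548) in the osteosarcomas. Of 8 MHC class II genes, which present peptides to T cells, all 8 were above the 12 osteosarcomas and 2 rose, but 2 of the 8, Ciita and H2-Oa, reached a signal of 200 on the labelled tumour's array alone. H2-DMa, needed for peptide loading, had 8433 in the labelled tumour, against 221 to 1416 (median 654) in the osteosarcomas and 88.9 in mc3T3. H2-DMb2 had 772 in the labelled tumour, against 50.4 to 251 (median 147) in the osteosarcomas.

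Of 15 T and NK cell genes, 1 rose and 10 were above all 12 osteosarcomas, against 16.6% of all genes above them. Of these 10, Cd3d, Cd3g, Cd8b1 and Il2rb reached a signal of 200 on the labelled tumour's array alone and had to differ. The chemokine gene Ccl5 had 3746 in the labelled tumour, against 90.9 to 1099 (median 219) in the osteosarcomas and 668 in mc3T3. The defining T cell gene Cd3e stayed under a signal of 200 on every array, with 38.3 in the labelled tumour and 7.8 to 51.4 in the osteosarcomas. Of 25 interferon response genes, all 25 had a positive change, 13 were above all 12 osteosarcomas and 1 rose, or 2 without osteosarcoma 4. Gbp2, a GTPase induced by interferon gamma, had 13715 in the labelled tumour, against 408 to 3894 (median 1177) in the osteosarcomas and 1309 in mc3T3. The summed interferon signal was 96794 in the labelled tumour and 9878 to 87224 in the osteosarcomas, so the highest osteosarcoma came close. The part of infiltrating cells in the other differences was not tested.

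Proliferation genes were not called. Of 28 cell cycle genes, 0 were called in either direction, 27 had a positive change, and the median change was 0.46. The labelled tumour was above all 12 osteosarcomas for 6 of them, against 16.6% of all genes. The summed signal of the 28 genes was 70543 in the labelled tumour, just above the 22291.5 to 69093 of the osteosarcomas. Mki67 had 2410.1 in the labelled tumour, against 556 to 3572 (median 2305) in the osteosarcomas, in the middle of their range. Hox genes pattern the body axis. Of 20 tested Hox genes, 1 rose and 2 fell. Without osteosarcoma 3, 4 fell, and against only the 6 osteosarcomas with an m identifier 0 rose and 4 fell. Hoxd9 had 875 in the labelled tumour, against 10.9 to 242 (median 38.6) in the osteosarcomas. Hoxb2 had 21.6 in the labelled tumour, against 437 to 2358 (median 1366) in the osteosarcomas and 51.8 in mc3T3, and fell by 4.63 ± 0.69 (adjusted p = 0.0017). Hoxb3 had 109 in the labelled tumour, against 317 to 739.6 (median 592) in the osteosarcomas. Of 20 limb and axial patterning factors, 2 fell and 0 rose, and 1 fell without osteosarcoma 1, 4, 7, 9, 10 or 11. Tbx2 had 10.8 in the labelled tumour, against 259 to 1423 (median 479) in the osteosarcomas, and Foxc2 had 5.2, against 74.9 to 421 (median 178). The call of Foxc2 was lost in 11 of 20 alternatives.

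Genes that lie side by side were then examined over 9799 genes in running windows of 15 neighbours. A window was counted when its median in the labelled tumour was outside all 12 osteosarcomas and at least 0.75 from the median osteosarcoma on the log2 scale. This held for 63 of 9519 windows (0.662%) upward and 71 (0.746%) downward, in 20 and 16 runs of overlapping windows. Neighbouring runs can share genes, and merged where they do they formed 10 upward and 13 downward stretches. Of the 20 upward runs, 10 were on chromosome 19 and 3 on chromosome 3, in 3 and 2 stretches. The longest, with 28 genes between Minpp1 and Cep55 on chromosome 19, reached 1.14 in the labelled tumour, against -1.28 to 0.62 in the osteosarcomas. Its 4 largest changes were those of Ifit3, Ifit2, Ifit1bl1 and Ifit1, which are interferon response genes. The run between Lamtor3 and Sh3glb1 on chromosome 3 reached 1.35 and was led by Gbp2 and Gbp2b, and the run between H2-K1 and Atf6b on chromosome 17 held the MHC class II genes. Of the 16 downward runs, 6 were on chromosome 1 and 4 on chromosome X, in 5 and 3 stretches. The longest downward run, 26 genes between Cnppd1 and Mff on chromosome 1, included Des and reached -0.89, against -0.43 to 0.15 in the osteosarcomas. A downward run on chromosome 6 between Gsdme and Ggct held Hoxa9, Hoxa10 and Hoxa5, and one on chromosome 9 between Dhx30 and Cnot10 held Pth1r. A downward run on chromosome 2 between Cd302 and Phospho2 held Fap.

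Whole chromosomes were set side by side after these runs had been seen. The median of all genes of a chromosome in the labelled tumour was outside the 12 osteosarcomas on 7 of 20 chromosomes (35%). It was above them on chromosomes 19 (0.43), 15 (0.32), 3 (0.28) and 4 (0.22). It was below them on chromosomes X (-0.43), 16 (-0.36) and 1 (-0.36). On chromosome 19, 75.6% of 349 genes were above the median osteosarcoma, and on chromosome X 24.8% of 310 were. The 7 chromosomes kept their direction outside the range when all called genes were left out. Single osteosarcomas were themselves the most extreme array on 0 to 9 chromosomes. DNA copy number was not measured. On chromosome X, Xist, the RNA of the inactive X chromosome, had 55.3 in the labelled tumour, against 112 to 9250.4 (median 3923) in the osteosarcomas and 90.0 in mc3T3, a gene chosen after its value was seen that did not pass (adjusted p = 0.0893).

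**Figure D5:**
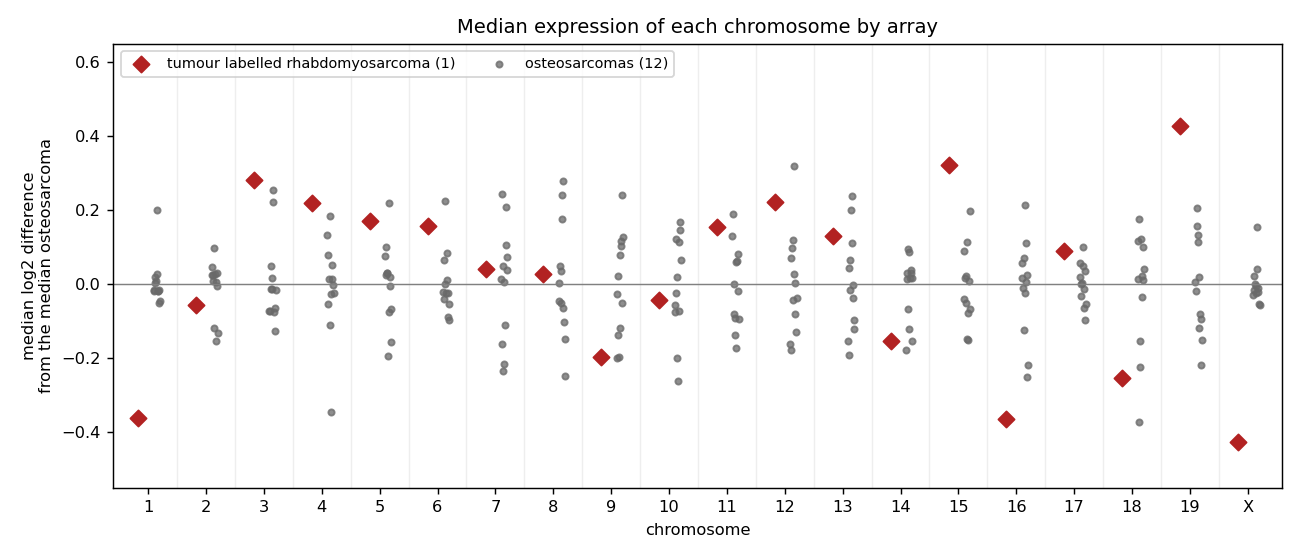
Median log2 difference from the median osteosarcoma over the genes of each chromosome, for the labelled tumour (red diamonds) and the 12 osteosarcomas (grey points). The labelled tumour lies above all grey points on chromosomes 3, 4, 15 and 19 and below all of them on chromosomes 1, 16 and X.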

How the data were processed

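RNA of 14 samples (1 tumour labelled rhabdomyosarcoma, 12 osteosarcomas, mc3T3) was column-extracted, biotin-labelled and hybridised to Affymetrix arrays, per the labels' protocols. The deposited values are array intensity, or signal, on a linear scale for 45101 probe sets, and the submitters' processing notes name GCOS, whose version is not given in the sources used here. On each array the mean after dropping 2% of probe sets at either end was 500 within rounding. Groups follow the titles, because the description names mc3T3 for every sample. Replicate numbers follow accession order and only name samples. No 2 columns were identical, and the highest correlation between arrays was 0.953. How few arrays there are limits precision. The beta-actin 3' to 5' ratio of the labelled tumour lay below that of every osteosarcoma, and its part in the differences was not tested. No other limit was measured.

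Of 34945 probe sets with 1 symbol in the platform annotation, 34741 were brought to current symbols through Entrez identifiers. A further 932 had several genes and 9160 were unnamed here. The fit took log2(signal + 30) of probe sets that reached a signal of 200 on any of the arrays, a scale that understates changes of low genes. A gene is its brightest probe set, by mean over 14 arrays. Among 150 called genes with several tested probe sets, 149 had all of them in 1 direction. limma 3.58.1 in R 4.3.3 (lmFit, eBayes, two-sided, Benjamini-Hochberg over 11815 genes) fitted 3 groups, with 11 residual and 3.56 prior degrees of freedom, all from the osteosarcomas. In simulated data with 200 of 11815 genes changed, the share recovered was 8% for a log2 change of 1, 52% for 2, 86% for 4 and 100% for 6. There were 2 false calls. Each gene was drawn independently from its osteosarcoma mean and SD, also for the array standing for the labelled tumour. The simulation therefore does not measure the false calls in the real data.

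The members, the 27 lists and the named genes were chosen with earlier results of these data known. Of 578 list genes, 435 were tested, 101 stayed under the signal filter and 42 could not be matched to a named probe set. Named genes are the 15 highest and 15 lowest called genes outside the osteosarcoma range, up to 6 called members per list and direction, the ends and 4 largest changes of runs of neighbouring genes, and 43 set markers, of which 32 were tested. Gene order and promoter sequences came from RefSeq tables of GRCm38.p6. Alternatives covered quantile normalization, pseudocounts of 10 and 100, the signal filter, averaged probe sets, an intensity trend, and fewer osteosarcomas.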

Additional observations from a re-analysis of the deposited data

How the results depend on the processing

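No paired analysis was possible because nothing in the labels matches the labelled tumour to an osteosarcoma. Over 21 alternatives, the count of genes called higher was 97 to 206 (reported as 141) and of genes called lower 155 to 233 (208). Without each osteosarcoma in turn they were 128 to 151 and 172 to 233. Of 61 called named genes, 49 were called in every alternative and 12 were lost in at least 1, with 0 reversed. Those 12 were Axl, Met, Col1a1, Foxc2, Cst6, Hoxd9, Cdh19, Col5a2, Fgfr3, Tnc, H2-DMb2 and Wif1. None of the 22 named genes that did not pass was gained. Osteoblast genes called lower stayed between 11 and 14 of 26, osteoclast genes between 9 and 12, and muscle genes called higher at 0. Genes at least 1 above the osteosarcoma range numbered 227, and 426 with only the 6 osteosarcomas whose identifier starts with m. Genes at least 1 below it numbered 260, 440 with those 6 osteosarcomas and 172 with a pseudocount of 100. A range of fewer tumours is narrower by construction. Fibroblast genes called higher went to 5 with a pseudocount of 100 and to 5 without osteosarcomas 6 and 9. Windows of 9 neighbouring genes gave 144 upward and 164 downward, and windows of 25 genes gave 21 and 4. The 7 chromosomes outside the range, an examination chosen after seeing the data, kept their side under quantile normalization for 6 and with genes of a mean of at least 500 for 7. The labelled tumour is 1 array, so its own spread was not measured, and no value here separates tumour cells from other cells of the sample.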

Other observations

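Chosen after their values were seen, and therefore given without a test, several genes of mast cells had higher signals in the labelled tumour than in any osteosarcoma. Mast cells are tissue granulocytes that store proteases and bind IgE. Of 16 listed genes, 10 passed the signal filter. Of these, Mcpt2, Tpsb2 and Fcer1a passed it on the labelled tumour's array alone and had to differ, so counts over the list are a description only. Of the other 7, the labelled tumour was above all 12 osteosarcomas for 6, against 16.6% of all genes. Gata2, among these, was above the highest osteosarcoma by only 0.05 on the log2 scale. Kit was inside the range, with 399.6 in the labelled tumour, against 58.0 to 601.9 (median 188.5) in the osteosarcomas. The carboxypeptidase gene Cpa3 had 1804 in the labelled tumour, against 2.4 to 456 (median 58.3) in the osteosarcomas. The chymase gene Cma1 had 1648 in the labelled tumour, against 8.1 to 352 (median 43.8) in the osteosarcomas. The IgE receptor gene Fcer1a had 469 in the labelled tumour, against 1.8 to 74.8 (median 37.3) in the osteosarcomas. The labelled tumour was above the whole range for each of them. Dendritic cell genes, chosen in the same way, were mixed. Of 9 that passed the filter, Ccl17 and Cd209a did so on the labelled tumour's array alone. Of the other 7, the labelled tumour was above all 12 osteosarcomas for 2, inside their range for 4 and below it for 1. The chemokine gene Ccl17 had 859 in the labelled tumour, against 5.1 to 114 (median 30.9) in the osteosarcomas. Cd207, the langerin gene of Langerhans cells, lay below the range, with 4.6 in the labelled tumour, against a median of 88.7 in the osteosarcomas. The part of such cells in the other differences was not tested.

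For further transcription factors, also picked after their values were seen and given without a test, the labelled tumour lay outside the osteosarcoma range. Osr2, a factor of limb and palate mesenchyme, had 454 in the labelled tumour, against 1.2 to 36.0 (median 4.4) in the osteosarcomas. Gata3 had 300.1 in the labelled tumour, against 2.9 to 34.2 (median 5.9) in the osteosarcomas, and Gata6 had 496 in the labelled tumour, against 3.8 to 197 (median 40.1) in the osteosarcomas. Foxp2 had 491 in the labelled tumour, against 5.4 to 96.2 (median 41.6) in the osteosarcomas. For all of these the labelled tumour was above the 12 osteosarcomas. No osteosarcoma reached the level of the signal filter for any of them. Genes picked in this way had to lie above the osteosarcomas, so their place is a description only. In the other direction, the iroquois factor Irx3 had 145 in the labelled tumour, against 619.5 to 1777 (median 1101) in the osteosarcomas, and Irx5 had 73.6 in the labelled tumour, against 361 to 862 (median 559) in the osteosarcomas. Creb3l1, a factor of collagen secretion in osteoblasts, had 448 in the labelled tumour, against 1689 to 7349 (median 4409.5) in the osteosarcomas. The labelled tumour was below every osteosarcoma for these.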
